A study of Homo sapiens with 2 samples.

Results

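Tandem splice acceptors are pairs of 3′ splice sites that lie 3 bases apart behind the same 5′ splice site, so that 1 intron can end at either of 2 neighbouring points. The pairs were found by comparing RefSeq introns on chromosomes 1 to 22 in the deposited transcript models: a pair is 2 introns of the same strand that share the 5′ splice site exactly and whose 3′ splice sites are exactly 3 bases apart. Of 200763 RefSeq introns, 550 pairs met this rule, at 530 acceptor pairs in 505 genes. The rule asked for each pair in both libraries' models, so all 550 are in both by definition.

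The study compared 2 polyA RNA libraries of HCT116, an established human colorectal carcinoma line. Both came from HCT116 cells carrying a tetracycline-inducible knockdown of USP49, a deubiquitinase that acts on histone H2B, under blasticidin and puromycin selection; 1 library is labelled control and 1 is labelled USP49 knockdown, with harvest 36 h after doxycycline. The labels repeat the same induction text for both libraries and do not say whether the control cells of this RNA experiment received doxycycline. There was 1 library per group, so the differences below lack any replicate check and carry no test. Nor do the labels say whether the inducible line is 1 clone.

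An acceptor is the end of an intron and nearly always reads AG. The protein U2AF, of a large and a small subunit, binds the pyrimidine-rich stretch and the AG; the AG that is joined is settled in the second chemical step of splicing, for which PRPF18, SLU7 and PRPF8 are known. Where 2 such triplets follow each other, a motif often called NAGNAG, joining at the upstream (proximal) AG puts the 3 bases of the downstream (distal) triplet into the mRNA, and joining at the distal AG leaves them out. In coding sequence this adds or removes bases without changing the reading frame. The bases before each AG are known to matter: CAG and TAG are common at human acceptors, AAG is less so and GAG is rare.

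The libraries held about 16331614 fragments (control) and 19910907 fragments (labelled knockdown), recovered from the deposited values. The models of USP49 summed to 2.89 FPKM (fragments per kilobase of model, scaled to library depth) in the control library and 1.11 FPKM in the knockdown-labelled library, but the fragment density on all USP49 exons was 0.896 and 1.09 FPKM. The 2 measures of the targeted gene thus differ in direction, and the second library is called "the knockdown-labelled library" throughout. Of 8 epithelial marker genes, 7 were at 1 FPKM or more in both libraries, EPCAM at 156 and 149 FPKM, while VIL1 was listed at 0. Of 8 leukocyte and fibroblast markers, 7 were below 1 FPKM in both, PTPRC, COL1A2 and DCN at 0, and COL1A1 was at 10.5 and 7.79 FPKM.

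The bases around 8 pairs follow, chosen to show the combinations of triplets whose usage is described below. Each runs 5′ to 3′ from 12 intronic bases through both triplets, in capitals with the proximal triplet first, to 12 bases beyond. Positions are the last intronic base of the proximal and of the distal intron in hg18, and the bases were read from GENCODE transcripts of release 29 (GRCh38) that run across both acceptors.
SAFB, chromosome 19, plus strand, 5612528 and 5612531: tctactgttgtgCAGCAGggtgcgtgaacg
LSR, chromosome 19, plus strand, 40449578 and 40449581: cccccctgtcccTAGAAGtccgcagtggct
MACROH2A1, chromosome 5, minus strand, 134724197 and 134724194: ttccgtctgtgcAAGAAGaagcagggtgaa
TSC1, chromosome 9, minus strand, 134775901 and 134775898: gcccttgtctctAAGCAGgtggaaaaggaa
RABL6, chromosome 9, plus strand, 138846534 and 138846537: tttcctttctgaAAGCAGacctccaggttc
NSMCE4A, chromosome 10, minus strand, 123708916 and 123708913: attattgtctgcCAGGAGattgtgaagacc
PTMA, chromosome 2, plus strand, 232284840 and 232284843: ctgttttctgtcGAGGAGaatgaggaaaat
CPNE1, chromosome 20, minus strand, 33678140 and 33678137: tgggcttgtcccCAGCAAtacttcatgctg

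For most pairs no transcript runs across the acceptors, and only the mRNA of the proximal form could be read. The next lines show it for 7 pairs described below, with 12 bases of the upstream exon, the 3 bases that proximal joining adds in capitals, and 12 bases downstream.
EIF4G1, chromosome 3, plus strand, 185523886 and 185523889: ccccgtgggccgCAGgctggcctggga
EIF2AK1, chromosome 7, minus strand, 6049151 and 6049148: ttcagccacgagCAGacagagctgcca
LEMD3, chromosome 12, plus strand, 63890972 and 63890975: gagaactcagcaTAGaaaacccctttg
SHC1, chromosome 1, minus strand, 153205181 and 153205178: caccctgtccagCAGgcagagagcttt
SRRT, chromosome 7, plus strand, 100320769 and 100320772: aggaggaggccgAAGaagcgctcaagg
CHTOP, chromosome 1, plus strand, 151881342 and 151881345: aaacttaagcagAAGagcttaaagcag
CTDSP1, chromosome 2, plus strand, 218975077 and 218975080: gccatccctaagCAGaccccagtccaa

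A distance of 3 bases stood far above its neighbours among annotated acceptor pairs. Of 1210 RefSeq intron pairs that share the 5′ splice site and have acceptors up to 30 bases apart, 550 (45.5%) were 3 bases apart. Distances of 2, 4, 5 and 6 bases held 17, 61, 49 and 49 pairs. No such excess was seen for 5′ splice sites: of 663 intron pairs that share the 3′ splice site, 18 were 3 bases apart and 62 were 4 bases apart.

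**Figure D1:**
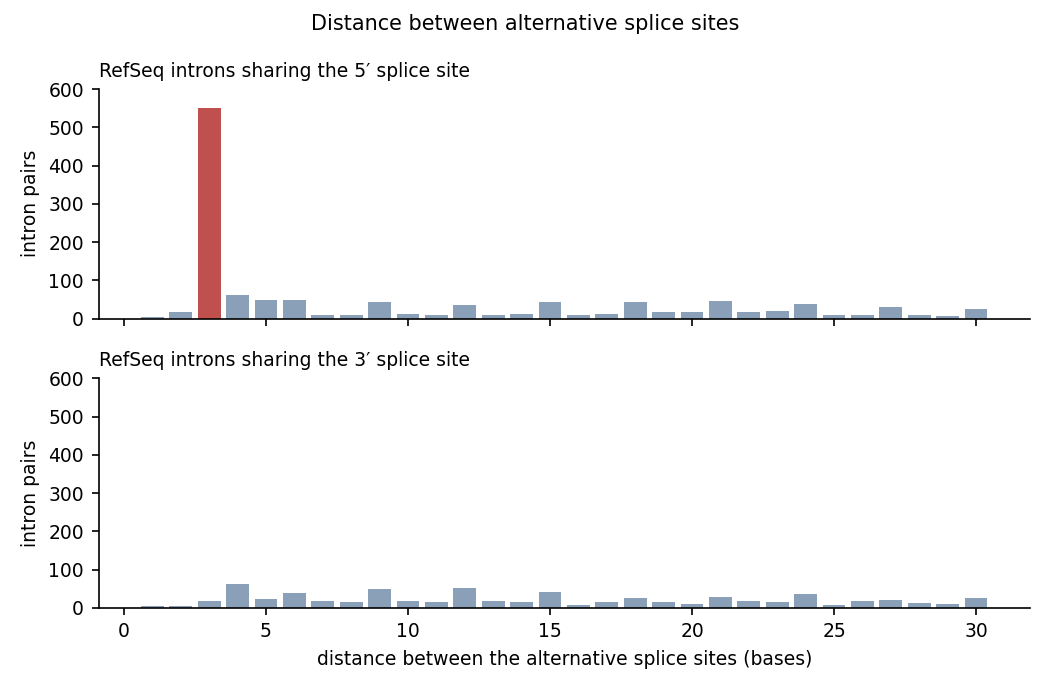
Number of RefSeq intron pairs (vertical axis) by distance in bases between their alternative splice sites (horizontal axis), for acceptors (upper panel) and 5′ splice sites (lower panel, same vertical scale). The red bar holds the 550 acceptor pairs 3 bases apart, and every other bar is at 62 pairs or fewer.

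The distal triplet, the one whose bases enter the mRNA, could be read for 536 of the 550 pairs. It was CAG in 395, AAG in 80, TAG in 41 and GAG in 15, and 5 pairs did not hold NAG there. The proximal triplet, always intronic in both spliced forms, was read for 155 pairs and was CAG in 92, TAG in 34, AAG in 20 and GAG in 3. In 146 of these 155 pairs both triplets were NAG, and CAG followed by CAG was the most frequent combination, with 71 pairs. The 3 bases lay in coding sequence in 447 pairs, in a 5′ UTR in 69 and in a 3′ UTR in 7. Within the coding pairs they entered between codons in 169, after the first base of a codon in 213 and after the second in 65. In 1 pair, PLCZ1, a sperm phospholipase, the codons holding the 3 bases include an in-frame stop; its models were listed at 0 in both libraries.

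The pairs were spread over short and long introns, with a median length of 1435.5 bases against 1665 for all RefSeq introns and a range from 71 to 154198 bases. First introns held 104 pairs and last introns 81. In 397 pairs, RefSeq has transcripts with each acceptor that are otherwise the same in every intron. All of the pairs printed so far lie in coding sequence.

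The usage of an acceptor was taken as the summed FPKM of the RefSeq and newly assembled models that hold the exact intron, and the proximal share as the proximal sum in percent of both. Of the 550 pairs, 347 (324 genes) had a summed level of 1 FPKM or more in both libraries and are called measured. Another 110 were listed at 0 in both libraries, and 93 were above 0 but below that level. The files give no reads over junctions, so a share is what the assembly assigned to whole transcript models. An acceptor listed at 0 can be a failed estimate and is not shown to be unused.

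Both acceptors were above 0 in 178 of the measured pairs in the control library and in 199 in the knockdown-labelled library. The proximal acceptor alone was above 0 in 105 and 91 pairs, and the distal acceptor alone in 64 and 57. The median proximal share was 60.6% in the control library, with quartiles of 27.8% and 100%, and 61.5% in the knockdown-labelled library, with quartiles of 28.2% and 100%. The proximal form was the larger one in 206 and 201 of the 347 pairs. Proximal joining, which lengthens the mRNA, was thus the more frequent assignment in both libraries by a similar margin. This was not particular to a distance of 3 bases. Measured in the same way, RefSeq acceptor pairs 4 to 30 bases apart had median proximal shares of 63.5% and 59.8%. Those 31 to 300 bases apart had 65.2% and 64.3%.

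Median usage was not the same for each distal triplet. Where it was CAG (254 measured pairs), the median proximal share was 55.5% in the control library and 56.8% in the knockdown-labelled library. With AAG (55 pairs), it was 100% and 80.7%. The distal acceptor was listed at 0 in both libraries in 17 of the 55 pairs with AAG, in 30 of the 254 with CAG and in 6 of the 8 with GAG. The reverse, only the distal acceptor above 0 in both, held in 2 pairs with AAG and 31 with CAG. Both acceptors were above 0 in both libraries in 12 of the 55 with AAG and 111 of the 254 with CAG. In those 12 the proximal share ran from 33.6% to 85.7% in the control library and from 34.7% to 80.4% in the knockdown-labelled library. The medians over all 135 such pairs were 55.3% and 54.6%. The high medians with AAG thus rest on pairs with an acceptor listed at 0. A distal TAG (23 pairs) had medians of 54.8% and 76.7%. These are counts within 1 library each and carry no test.

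The 6 pairs with a distal GAG and only the proximal acceptor above 0 included well-measured genes. NSMCE4A, a subunit of the SMC5/6 DNA repair complex, stood at 55.7 and 57.6 FPKM at the proximal CAG, with the GAG at 0. TAF1C, a subunit of the RNA polymerase I factor SL1, was at 40.4 and 37.1 FPKM, and RNF40, a ubiquitin ligase for histone H2B, at 35.3 and 37.6 FPKM. UCHL5, IFT27 and DGKZ were the others. In ZNF200 the GAG was at 0 in the control library and at 2.19 FPKM in the knockdown-labelled library, beside 5.08 and 2.36 FPKM at the proximal acceptor. ZNF200 has another measured pair, with shares of 40.6% and 48.1%. In the knockdown-labelled library that 48.1% is the complement of the 51.9% at this pair. The choice at the GAG may therefore not be told from the choice at the other pair. PTMA, the gene of prothymosin alpha, went the other way: both triplets are GAG, and the models put 13.9 and 14.6 FPKM at the distal one and 0 at the proximal one.

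An AAG in the proximal position came mostly with distal usage. In only 3 of the 15 measured pairs were both acceptors above 0 in both libraries. Of the 15 measured pairs with a proximal AAG, the median proximal share was 0% in both libraries, and 3 pairs in each library were over 50%. In 6 of them the proximal acceptor was listed at 0 in both libraries, against 6 of the 62 measured pairs with a proximal CAG, whose medians were 62.2% and 65.2%. RABL6, a GTPase of the Rab-like family, had 36.3 and 42.4 FPKM at the distal CAG, and FOXM1, a transcription factor of the cell cycle, 8.90 and 15.7 FPKM, both with the AAG at 0. HROB, CEACAM19, ZNF181 and ZNF566 had the same form. MACROH2A1, with AAG at both positions, used both: the AAG pair printed above had proximal shares of 41.2% and 47.1%. SERPINE2, a secreted serine protease inhibitor, had 45.0% and 13.6%.

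Of the 5 pairs without NAG in the distal position, 3 were measured. CPNE1, a copine that binds membranes in the presence of calcium, had 89.9 and 81.9 FPKM at the proximal CAG and 0 at the distal CAA in both libraries. The other 2 were mostly distal. The models of FDXR, the reductase that passes electrons to ferredoxin in mitochondria, put 61.3 and 42.8 FPKM at a distal CAC and 0 and 11.9 FPKM at the proximal CAG. A pair of SRGAP2 had 8.61 and 9.27 FPKM at a distal TGT and 0 at the proximal acceptor; this gene has near-identical copies, SRGAP2B and SRGAP2C, so its values are uncertain. The triplets were read from GRCh38 transcripts matched by intron length, and the hg18 bases at these sites were not used here.

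The pairs with the highest levels and both acceptors above 0 included several genes that act on RNA and translation. The interval of a share, here and below, combines the deposited bounds of both acceptors and covers counting error within the assembly only. EIF4G1, the scaffold of the cap-binding complex in translation, had 79.2 FPKM proximal and 118 FPKM distal in the control library, and 39.7 and 147 FPKM in the knockdown-labelled library. Its share went from 40.3% to 21.3%, which is -18.9 points and just under the size used as a rule here, and it was 6.25 points higher with RefSeq models alone. EIF2AK1, the heme-regulated kinase of the translation factor eIF2α, had 22.7 FPKM proximal and 48.0 FPKM distal in the control library against 74.7 and 10.2 FPKM. That is a share of 32.1% and 88.0%, 55.9 points higher, and -100 points with RefSeq models alone. SAFB, a nuclear matrix and RNA-binding protein, had shares of 59.7% and 34.1%; the difference of -25.5 points was 61.8 points with RefSeq models alone and 4.53 points in fragments. For EIF2AK1 and SAFB the direction thus depended on which models were summed. For SAFB it also depended on whether FPKM or fragments were summed.

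Other high-level pairs differed little. MACROH2A1, a histone variant of silent chromatin, had 63.1 and 89.9 FPKM at its proximal and distal AAG in the control library and 67.9 and 76.3 FPKM in the knockdown-labelled library. Its intervals, 38.8 to 43.7% and 44.8 to 49.4%, did not overlap, at 5.85 points apart; RefSeq models alone gave 47.1 points, since the control library's proximal form was a newly assembled model. LSR, a lipoprotein receptor of epithelial junctions, had a share of 81.9% and 80.4%, with its distal AAG at 18.2 and 17.4 FPKM. ACIN1, a subunit of a complex bound to exon junctions, was at 89.2% and 88.1%. SRRT, which links the cap-binding complex to RNA processing, was at 44.7% and 41.1%, with overlapping intervals, and differed by -44.7 points with RefSeq models alone.

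NUSAP1, a spindle microtubule protein, had a share of 54.1% and 59.8%, with overlapping intervals. SRSF11, a splicing factor with an arginine- and serine-rich region, has 2 pairs, in introns 1 and 12 of 12. The same models hold both, so both show 72.2% and 66.8%, and the assembly cannot tell the choice at the one from the choice at the other. The SRSF11 pair in intron 1 is AAG followed by CAG, and its high proximal share rests on those shared models.

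Across the 347 measured pairs, the share was 20 points or more apart between the libraries in 116 (33.4%), 56 of them higher (16.1%) and 60 lower (17.3%) in the knockdown-labelled library. With share intervals that also did not overlap there were 114 (32.9%), and at any size of difference the intervals were apart in 178 pairs (51.3%). Where an acceptor is listed at 0, the interval can have no width, as in LEMD3 (0 to 0% and 100 to 100%). In such pairs, intervals that are apart add little to the size of the difference. The median difference was 0 points and the median absolute difference 10.4 points; 136 pairs were within 5 points and 171 within 10. Shares in both libraries had a Pearson correlation of 0.654 and a Spearman correlation of 0.643 over the 347 pairs, which share models within genes. The pairs nearest to the limit were TFCP2 (-19.96 points), EIF4G3 (-20.11) and C11orf68 (20.12). The 2 directions were close to equal in number.

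The share of pairs past 20 points is read against other alternative splice sites measured in the same way. It was 22.9% of 380 measured acceptor pairs 4 to 30 bases apart, 23.1% of 782 acceptor pairs 31 to 300 bases apart, and 30.4% of 381 5′ splice site pairs 3 to 30 bases apart. Both sites were above 0 in both libraries more often for the pairs 3 bases apart, in 135 of 347 (38.9%) against 19.2%, 23.3% and 26.8% of the other kinds. With RefSeq models alone it was 22.8% for the pairs 3 bases apart, and the other kinds were not counted that way. With all models, among pairs with both sites above 0, 20.7% of those 3 bases apart were past 20 points. The other kinds had 21.9%, 19.8% and 23.5%. Share intervals were apart, at any size, in 31.8%, 33.9% and 43.6% of the other kinds, in the same order. None of these differences between kinds of pair was tested.

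**Figure D2:**
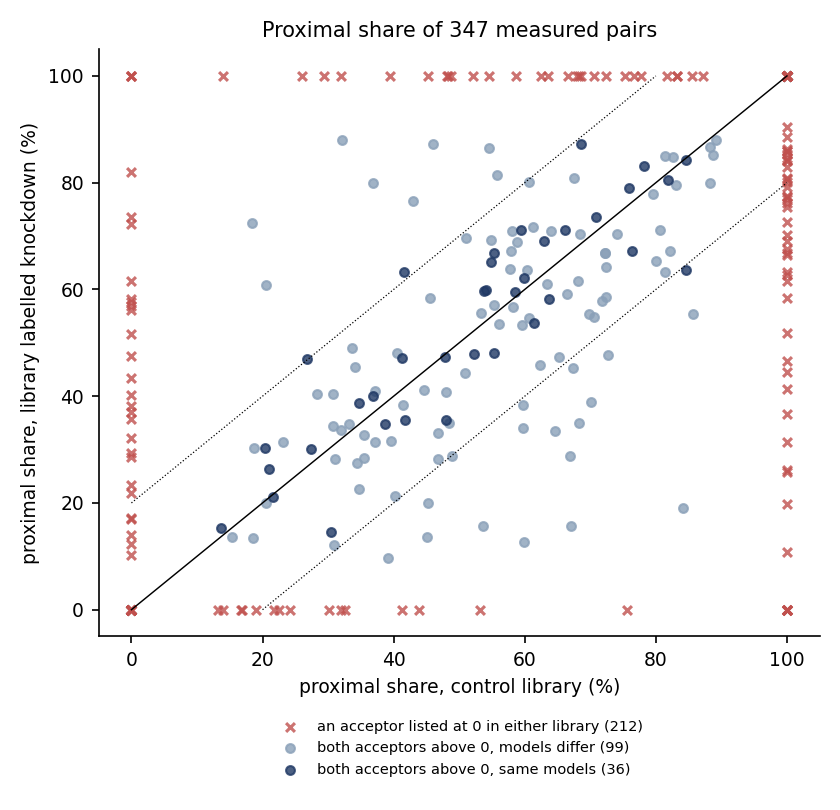
Proximal share in percent in the control library (horizontal axis) and in the knockdown-labelled library (vertical axis) for the 347 measured pairs, 1 symbol per pair. The solid line marks equal shares and the dotted lines 20 points; the 36 dark pairs, with the same models and both acceptors above 0, lie near the solid line, and the red crosses, 212 pairs with an acceptor listed at 0, fill the edges.

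Pairs past 20 points were mostly pairs whose models or listed acceptors were not the same in both libraries, as were most measured pairs. Of the 116 pairs past 20 points, 88 had an acceptor at 0 in a library, and 113 had models with other introns in the 2 libraries. Over all 347 measured pairs, 212 had an acceptor at 0 and 257 had such other models. An acceptor at 0 in 1 library and above 0 in the other makes the models differ by definition, as in all 88. With both acceptors above 0 in both libraries, 25 of 99 pairs whose models differed were past 20 points (25.3%), and 3 of 36 pairs with the same models (8.33%). Another 54 pairs had the same models and 1 acceptor above 0, which fixes their difference at 0. In the 36 pairs with the same models and both acceptors above 0, the median absolute difference was 5.62 points, the largest 21.8 points and the correlation between libraries 0.890. Where both acceptors were above 0 in 1 library and 1 acceptor in the other (107 pairs), 79 (73.8%) were past 20 points. The part of the model lists in the differences was not tested.

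The level of a pair moved with the count as well. In the lowest and the second quartile by mean summed FPKM, 44.8% and 46.0% of pairs were past 20 points, and in the third and the highest quartile 23.3% and 19.5%. The quartiles meet at 7.28, 16.6 and 33.8 FPKM. In the highest quartile the median absolute difference was 4.38 points. Pairs of higher level thus had the closer shares. They also had fewer acceptors at 0. From the lowest to the highest quartile, both acceptors were above 0 in both libraries in 19.5%, 29.9%, 47.7% and 58.6% of pairs. The part of the level and the part of the acceptors at 0 were not told apart.

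**Figure D3:**
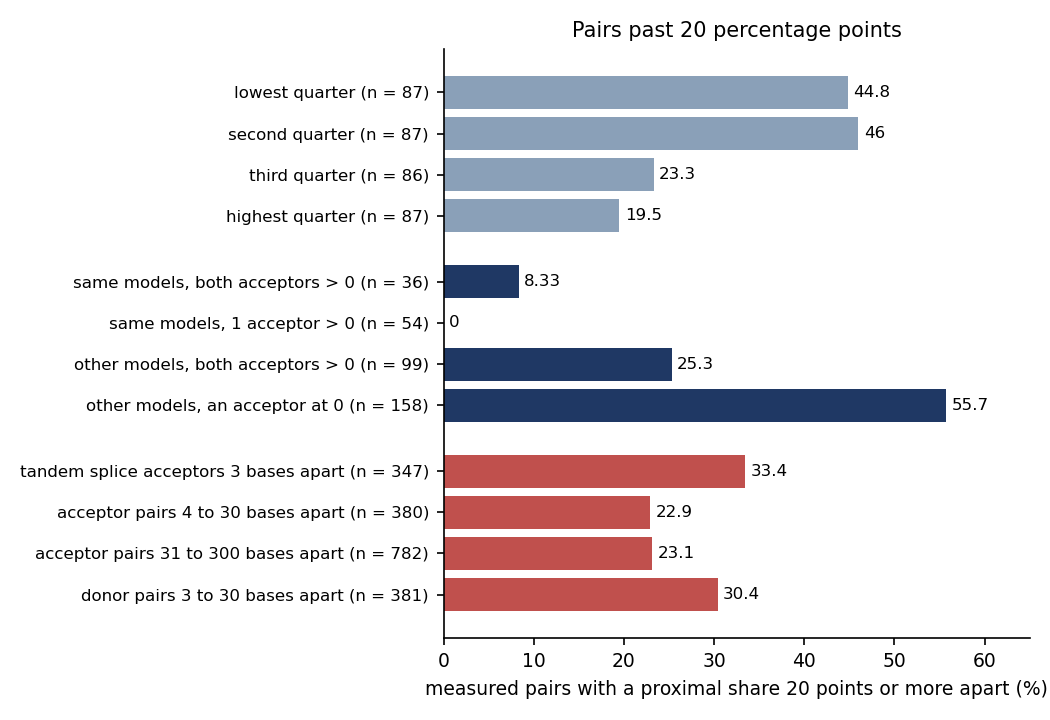
Percent of measured pairs whose proximal share was 20 points or more apart between the libraries (horizontal axis), for the pairs 3 bases apart by quartile of summed FPKM (light blue) and by their models (dark blue), and for all kinds of splice site pair (red), with the number of pairs in brackets. The bars run from 0% for the 54 pairs with the same models and 1 acceptor above 0 to 55.7% for the 158 with other models and an acceptor at 0.

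The 3 pairs past 20 points with the same models in both libraries were named after their values were seen. ZYX, the gene of zyxin, an adaptor of focal adhesions, had 33.0 FPKM proximal and 46.4 FPKM distal in the control library and 46.5 and 26.9 FPKM in the knockdown-labelled library, a share of 41.5% (38.4 to 44.7%) and 63.3% (60.4 to 66.2%). The pair is in intron 1 and the 3 bases lie in its 5′ UTR. METTL9, a histidine methyltransferase, had 18.05 and 3.29 FPKM against 13.4 and 7.67 FPKM, a share of 84.6% and 63.6%, at a TAG followed by TAG. In C11orf68, whose only intron holds the pair, the share was 26.9% and 46.98%. For all 3 the share intervals did not overlap, and the summed levels of ZYX, 79.4 and 73.4 FPKM, and METTL9, 21.3 and 21.1 FPKM, were close.
ZYX, chromosome 7, plus strand, 142788771 and 142788774: ggcgacccacccCAGCAGcccggcccggcc
METTL9, chromosome 16, plus strand, 21574048 and 21574051: tcttatttgtatTAGTAGgtggcaagtggg
C11orf68, chromosome 11, minus strand, 65442266 and 65442263: tcggttccctcaCAGCAGgatggaaccagg
These lines run as the first set, with both triplets in capitals; each of the 3 pairs repeats the same triplet.

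Other pairs with the same models and both acceptors above 0 moved by less. REV1, a translesion DNA polymerase, had 9.10 and 4.18 FPKM in the control library and 12.4 and 1.81 FPKM in the knockdown-labelled library, a share of 68.5% and 87.3%. DBNL, an actin-binding adaptor, went from 30.4% to 14.5%, and MASTL, a mitotic kinase, from 48.0% to 35.5%. SYNCRIP, an RNA-binding protein, was at 84.6% and 84.3%, and EPN1, an endocytic adaptor, at 70.8% and 73.6%. OS9, a lectin of protein quality control whose triplets are CAG then TAG, was at 27.3% and 30.2%.

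The 8 largest rises of the proximal share, among pairs at 5 FPKM or more with intervals apart, all came with an acceptor listed at 0 in a library and with models that differed. The second follows from the first by definition. Ranking by size also favours such pairs, since an acceptor at 0 sets that library's share at 0% or 100%. LEMD3, an inner nuclear membrane protein, had 14.6 FPKM at the distal TAG and 0 at the proximal acceptor in the control library, and 0 and 18.3 FPKM in the knockdown-labelled library. TENT4A, a poly(A) polymerase, had 4.04 FPKM proximal and 24.95 FPKM distal against 25.3 and 0 FPKM. ANKFY1, an endosomal effector of Rab5, had 0 and 13.6 FPKM against 11.9 and 2.60 FPKM. TSC1, hamartin, which restrains mTORC1, had 0 FPKM at the proximal AAG and 8.33 FPKM at the distal CAG against 6.92 and 2.48 FPKM. Its AAG was at 0 in the control library only, unlike in RABL6 and FOXM1, which have the same base order.

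The remaining rises were ZMAT3, an RNA-binding zinc finger protein induced by p53 (26.1% to 100%), AFDN, the junction protein afadin (29.4% to 100%), MIGA1, which acts in mitochondrial fusion (31.9% to 100%), and NFAT5, a transcription factor of osmotic stress (0% to 61.7%). Their summed levels were close between the libraries in ZMAT3, at 6.89 and 6.94 FPKM, and in AFDN, at 14.6 and 13.4 FPKM. NFAT5 summed to 20.01 and 29.1 FPKM.

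The 8 largest falls had models that differed as well, again by definition in every pair but MECOM. SHC1, an adaptor of growth factor receptors, had 53.1 FPKM at the proximal acceptor and 0 at the distal CAG in the control library, and 0 and 49.5 FPKM in the knockdown-labelled library. NRGN, neurogranin, had 24.9 and 0 FPKM against 0 and 18.8 FPKM, in a 3′ UTR, and GMEB1, a DNA-binding transcription factor, 7.85 and 0 against 0 and 5.04 FPKM, in a 5′ UTR. In these 3 genes the summed level stayed within 2-fold while it was assigned wholly to the other acceptor. CLASP1, a microtubule plus-end protein, went from 75.6% to 0% (0 points apart with RefSeq models alone), and RBBP4, a histone chaperone, from 100% to 26.1% (0 points with RefSeq models alone and -29.8 points in fragments).

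MECOM, a zinc finger transcription factor, alone among the 16 largest rises and falls had both acceptors above 0 in both libraries. It had 4.62 FPKM proximal and 0.876 FPKM distal in the control library and 1.06 and 4.49 FPKM in the knockdown-labelled library, a share of 84.1% (75.5 to 90.5%) and 19.1% (13.1 to 26.0%). TRAPPC13, a subunit of a vesicle tethering complex, went from 100% to 36.7%, and COMMD7, a member of the COMMD family, from 100% to 44.5%. COMMD7 summed to 11.3 FPKM in both libraries.

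In 9 measured pairs each library listed only 1 acceptor, and not the same one. They included SHC1, NRGN, GMEB1, LEMD3, SLC35G1, KCTD15, SCG5 and WDR31. The proximal acceptor was the one listed in the control library in 6 of the 9. KCTD15, whose triplets are AAG then CAG, had 7.56 FPKM at the AAG in the control library and 16.7 FPKM at the CAG in the knockdown-labelled library, and its control share had an interval from 0 to 100%, so it carries no information on the choice.

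The 6 smallest differences, among pairs at 5 FPKM or more with shares between 20 and 80%, show how close the shares could be. CTDSP1, a phosphatase of the RNA polymerase II tail, had 7.96 FPKM proximal and 29.01 FPKM distal in the control library and 7.47 and 27.8 FPKM in the knockdown-labelled library, a share of 21.5% and 21.2%. TMEM132A, a membrane protein, had 47.8% and 47.3%, and CHTOP, which acts in mRNA export, 33.9 and 24.0 FPKM against 34.8 and 23.7 FPKM, or 58.5% and 59.5%. Those 3 had the same models in both libraries. MAP4K4, a kinase of stress signalling, was at 32.0% and 33.6%, DCAF4, a substrate receptor of a ubiquitin ligase, at 58.3% and 56.6%, and ARNT, the partner of hypoxia-inducible factors, at 79.6% and 77.9%. With RefSeq models alone DCAF4 differed by -58.3 points and ARNT by 26.1 points.

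**Figure D4:**
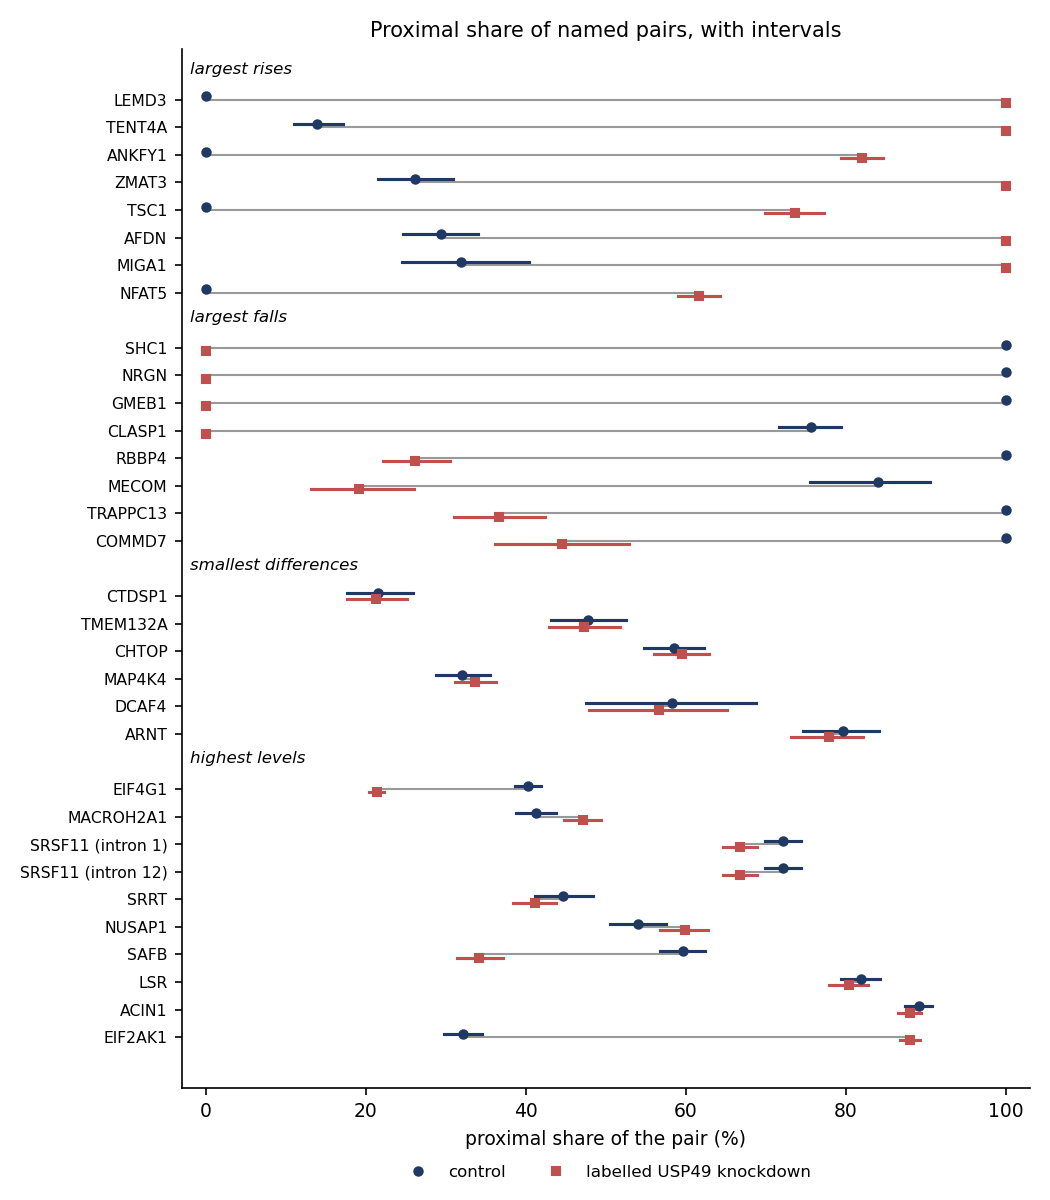
Proximal share in percent (horizontal axis) of named pairs in the control library (blue circles) and the knockdown-labelled library (red squares), with the share intervals as coloured bars and a grey line joining both. The falls and rises end at 0% or 100% in a library in every pair but MECOM, and the 6 smallest differences, from CTDSP1 to ARNT, have overlapping intervals.

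Coding and 5′ UTR pairs had similar median shares. Coding pairs (293 measured) had medians of 60.7% and 62.2% and 5′ UTR pairs (42 measured) 57.7% and 62.4%. Last introns (54 pairs) had 71.0% and 75.8%, and first introns (55 pairs) 66.2% and 47.9%. The 292 pairs outside first introns had 60.4% and 61.6%. Of the first introns 40.0% were past 20 points, against 32.2% of those 292. Both acceptors were above 0 in both libraries in 21.8% of the first introns and 42.1% of the 292. Pairs whose RefSeq transcripts are otherwise the same (245) had 60.3% and 58.4%, with 31.8% past 20 points.

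The summed level of both acceptors was past 2-fold in few of the measured pairs. Its median log2 ratio, with a pseudocount of 1 FPKM, was 0.02, and 5 of 347 pairs were past 2-fold. Of all 11637 genes at a mean of 1 FPKM or more, 3.41% were past 2-fold, 1.59% higher and 1.82% lower in the knockdown-labelled library. The pairs had to reach 1 FPKM in both libraries, which leaves out any pair at 0 in 1 library. The counts for pairs and genes are therefore not like for like. The pairs that were higher were ZNF587 (1.37 on the log2 scale), CRBN, the receptor of a ubiquitin ligase (1.12), KCTD15 (1.05) and ANKRD11, a chromatin regulator (1.00). The control value of KCTD15 had a lower bound of 0, as its share interval of 0 to 100% shows, so its rise is uncertain. CRBN went from 8.82 to 20.3 FPKM with its share from 100% to 46.6%. PKD1, polycystin-1, was lower, at 7.47 and 3.15 FPKM (-1.03), all of it at the distal CAG. Of the 116 pairs past 20 points, 114 had summed levels within 2-fold.

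Genes whose products read or choose the 3′ splice site did not pass 2-fold, where 3.41% of all 11637 genes did. With 25 genes measured, a count of 0 is near that share. Of 28 such genes listed, 25 were measured; 10 were above and 15 below 0 on the log2 scale, with a median of -0.03 against -0.0024 for all genes. U2AF1, the small subunit of U2AF that contacts the AG, was at 134 and 94.1 FPKM (-0.51), and U2AF2, the large subunit, at 152 and 122 FPKM (-0.31). SF1, which binds the branch point, was at 157 and 151 FPKM. PRPF8, at the centre of the spliceosome, was at 151 and 143 FPKM, and of the factors of the second step SLU7 was at 26.0 and 26.2 FPKM and PRPF18 at 23.5 and 27.8 FPKM (0.23). CDC40, another of them, was at 27.6 and 16.9 FPKM (-0.68), and KHSRP, which binds RNA near splice sites and in 3′ UTRs, at 161 and 111 FPKM (-0.54).

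Measured as fragment density on all RefSeq exons, none of the 25 factors passed 2-fold either. The share over all genes was not counted that way. Among these 25 the largest difference was U2AF1, at 77.1 and 68.4 FPKM (-0.17), CDC40 was at 0.08 and KHSRP at -0.12, and the median was -0.01. With RefSeq models alone, CDC40 was at 1.22 and KHSRP at -6.23, where it was listed at 0 in the knockdown-labelled library. DHX16 and HNRNPA1 were listed at 0 by their models in both libraries, although HNRNPA1 had an exon density of 48.9 and 42.6 FPKM, so a 0 there is not an absence of its RNA. SF3B14, the third gene not measured, is an older symbol of SF3B6, which was measured.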

How the data were processed

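Each library came as 1 table of Cufflinks transcript models on hg18; TopHat, Bowtie, SAMtools, Picard, Cufflinks and bedtools are named, without versions, per the submitters' processing notes. The deposited FPKM values carry no depth term. For RefSeq and spliced models they equal a fragment number divided by the model's length less 47 bases. For unspliced assembled models the bases taken off were about 246 (control) and 252 (labelled knockdown), and fragment numbers came from the deposited bounds. The fragment number given by the bounds was whole, within 0.02, for 94.9% and 94.5% of the models alone at their locus. Values were therefore scaled by each library's summed fragments (16331614 and 19910907), with Python 3.11.15, numpy 2.4.6, scipy 1.17.1 and matplotlib 3.10.9. The deposited bounds span 2 Poisson standard deviations each way in loci with 1 model and more in others, and hold no biological error.

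A pair was measured at a summed 1 FPKM or more in both libraries. With 1 library per group, a difference of 20 percentage points in share, or 2-fold in level (pseudocount 1 FPKM), served as a rule of size, with no test. The counting script was tested on simulated data. Models count as the same where those above 0 hold the same introns. GENCODE release 29 transcripts (GRCh38) gave the bases, matched by chromosome, strand, gene and intron length and not by coordinates, for 542 of 550 pairs. No bases are printed for chromosome 8.

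Named pairs are the 12 of highest mean FPKM with both acceptors above 0, the 8 largest rises and 8 largest falls at 5 FPKM or more with intervals apart, and the 6 smallest differences at 5 FPKM or more with shares of 20 to 80%. Others named, such as the pairs listed by triplet, by the same models or by opposite acceptors, were picked after their values were seen. Some of the pairs that these rules select are not reported here. The members and gene lists were chosen with earlier results of these data known.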

Additional observations from a re-analysis of the deposited data

How the results depend on the processing

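Shares rest on transcript models, not on reads over junctions, and 1 library per group leaves no measure of the spread between cultures. The percent of pairs past 20 points lay between 31.3% and 34.2% with RefSeq models alone, a minimum of 5 FPKM, no minimum, 1 pair per acceptor pair, transcripts otherwise the same, or fragment numbers. It was 50.7% at a limit of 10 points (94 pairs lower) and 24.5% at 30 points. With transcripts otherwise the same, 33 pairs were higher. Both of the next restrictions were added after the data were seen: the same models in both libraries left 2 pairs higher and 1 lower (3.33% of 90, of which 54 have a difference fixed at 0), and both acceptors above 0 in both libraries left 10 higher and 18 lower (20.7%). RefSeq models alone left 70 pairs (22.8%) with both acceptors above 0 in both libraries. Pairs 2-fold higher in summed level numbered 7 with a pseudocount of 0.1 FPKM and 24 as deposited; pairs lower numbered 0 at a minimum of 5 FPKM and 5 as deposited. As deposited, without the depth scaling, the median log2 ratio was 0.30 for the pairs and 0.25 for the splice site factors. RefSeq models alone put 1 factor 2-fold higher (CDC40) and 1 lower (KHSRP). With RefSeq models alone SAFB differed by 61.8 points and EIF2AK1 by -100 points, and in fragments SAFB by 4.53 points, each reversed; the first follows from leaving out assembled models, and the cause of the second was not tested. Of the named pairs with a value, 21 of 30 held with RefSeq models alone and 30 of 34 in fragments; FPKM as deposited leaves every share as it is, since the scaling cancels. No paired analysis was possible because each group has 1 library, and for the same reason no replicate could be left out.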
